A study of Homo sapiens with 114 samples.

Results

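The genes described here are the growth factors of the EGF family and their receptors: the ligand genes NRG1, AREG, EREG, HBEGF, TGFA and BTC and the receptor genes EGFR, ERBB2 and ERBB3. Members were taken by gene symbol, and 8 of the 9 named genes, represented by 34 probe sets of the 54675 on the array, were found among 19775 genes. No probe set was listed under the symbol AREG, which was not analysed here. HK-2 cells, an immortalized line from human proximal tubule epithelium, were exposed to 9 compounds known here only by the abbreviations CsA, Aa, Nnm, Kbr, Ota, Fk, Ra, CdCl and Di, and their RNA was measured on Affymetrix arrays. The stated aim was to find signatures of toxicity. Doses called high and low were used of Aa, Nnm and Kbr (24 and 48 h) and of Ota (24 and 72 h). A single unstated dose was used of CsA, Fk, Ra, CdCl and Di (12 and 48 h). These 26 treated groups were set against 12 groups of vehicle control cultures of the same times. Nnm shared its controls with Kbr, Fk with Ra, and CdCl with Di. The 38 groups held 3 arrays each, which the labels call biological replicates.

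Every group, controls included, grew in medium with 10 ng/ml recombinant human EGF, and treatment began at about 90% confluency, so each change below is measured in cells already supplied with a ligand of EGFR. The compounds with common controls form 6 control families, and every comparison was made within one family. Only the labels of the CsA arrays give a laboratory number. All cultures come from 1 cell line. Of 11 proximal tubule markers in the table, 1 (PAX8) was above log2 4 in controls, at a mean of 10.5, and markers of mature proximal tubule such as LRP2, CUBN, AQP1 and SLC34A1 were below it. All 5 epithelial markers looked up (KRT8, KRT18, KRT19, CDH1 and EPCAM) were above that level. None of 4 markers of other nephron segments was, and of 5 markers of other cell types only COL1A1 was, at 8.15. In cultures measured in bulk, a smaller number of cells of a kind and less RNA per cell cannot be told apart.

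EGF family ligands are made as membrane-anchored precursors, and metalloproteases of the ADAM family release them to act on the same or neighbouring cells. HBEGF, EREG, TGFA, BTC and AREG bind EGFR, NRG1 binds ERBB3, and HBEGF, EREG and BTC also bind ERBB4. ERBB2 has no known ligand of its own and pairs with the other receptors, while the kinase of ERBB3 is weak and the receptor signals through its partners to PI3 kinase. In the kidney tubule this family is known for its part in epithelial repair after injury.

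Values are log2 expression as deposited, and a change is the treated mean minus the control mean, ± the standard error of the limma fit. Called means an adjusted p under 0.05, after Benjamini-Hochberg adjustment over every gene tested in a comparison. Levels below about log2 4 were taken as background. The arrays' medians ranged between 2.87 and 3.13 and their upper quartiles between 6.09 and 7.18. In 2 comparisons against control the median change of all genes moved by over 0.1 when arrays were quantile normalized, by 0.215 for Ota high 24 h and by 0.205 for Ra 48 h, where it had been -0.29 and -0.19. The Nnm arrays numbered 2 lay nearer to the controls than their partners did over all genes, with a root mean square difference of 0.526 against 0.95 and 0.912 for Nnm high 24 h and of 0.486 against 0.921 and 0.849 for Nnm high 48 h. Array 2 of Ra 48 h also stood apart, with an upper quartile of 6.09, against 7.02 and 6.89 on its partners, and a difference from the controls of 1.08, against 0.514 and 0.731.

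Over the 26 comparisons the members gave 200 tested results, since ERBB3 did not pass the filter in the Aa family or in the family of CdCl and Di. Of these, 38 were called higher and 38 lower, 38% in all, beside 26.9% of all gene results (11.8% higher and 15.1% lower). HBEGF rose in 11 comparisons and fell in none, and ERBB2 fell in 9 and rose in none. NRG1 fell in 10 and rose in 2, EGFR fell in 7 and rose in 2, ERBB3 was called higher in 5 of 18 through the filter described below, TGFA rose in 9 and fell in 7, EREG rose in 5 and fell in 1, and BTC rose in 4 and fell in 4. Over the members' probe sets taken singly, 75 results were called higher and 79 lower. These are counts, not shares, over those of the 34 probe sets that passed the filter in each family. Of all probe set results 24.7% were called (11.8% higher and 12.9% lower). Of the 76 gene calls, 35 held under every listed processing alternative that gave a value and with each array left out in turn. The 3 arrays of the 2 groups did not overlap in 104 of 200 member results (52%), beside 42.2% of all gene results.

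Markers of cell identity moved in some of the same groups. The 5 epithelial markers were called higher in 5 and lower in 27 of 130 results (24.6%), PAX8 higher in 5 and lower in 3 of 26, and COL1A1 lower in 7 and higher in none. PAX8 was lower with Ota high 24 h (-2.52), Ota high 72 h (-1.64) and Aa high 48 h (-1.10), groups in which NRG1 fell and HBEGF rose. It was higher with Nnm high 48 h (0.44), Nnm low 24 h (0.67) and Nnm low 48 h (0.64), and in the first 2 of these NRG1 fell. PAX8 was also higher with CdCl 48 h (0.35) and Di 48 h (0.38), groups in which NRG1 and HBEGF both rose. COL1A1 was lower with Kbr high 48 h (-2.71) and Kbr low 48 h (-2.04), where HBEGF rose and ERBB2 fell, and with Ota high 24 h (-2.04). Of the epithelial markers, CDH1 was lower with Ota high 72 h (-3.32), Kbr high 48 h (-2.62) and Aa high 24 h (-1.47), and KRT19 with Ota high 24 h (-2.30), Kbr high 48 h (-1.98) and Di 48 h (-1.20). Other results of these markers went up. CDH1 was higher with CdCl 48 h (0.81) and KRT8 with Aa high 48 h (0.73). KRT18 was higher with Aa low 48 h (0.40), Di 12 h (0.31) and Di 48 h (0.25). The part of these shifts in the results below was not tested.

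In the 7 comparisons with under 10% of genes called (CsA, Fk and Ra at both times and Kbr low 24 h), at most 1 member was called. With Aa high, 5 of 7 members were called at 48 h (64.3% of all genes) and 4 of 7 at 24 h (49.9%), and with Aa low 6 of 7 at 48 h (37%) and 0 of 7 at 24 h (23.2%). With Nnm high, 3 of 8 were called at 48 h (27.7%) and 5 of 8 at 24 h (35.9%), and with Nnm low 2 of 8 at 48 h (14.1%) and 3 of 8 at 24 h (18.5%). With Kbr high, 3 of 8 were called at 48 h (51.1%) and 3 of 8 at 24 h (21.6%), and with Kbr low 3 of 8 at 48 h (29.4%) and 0 of 8 at 24 h (1.36%). With Ota high, 7 of 8 were called at 72 h (63.2%) and 6 of 8 at 24 h (65%), and with Ota low 4 of 8 at 72 h (16%) and 2 of 8 at 24 h (13.7%). CdCl gave 6 of 7 at 48 h (46.4%) and 4 of 7 at 12 h (48.7%), and Di gave 7 of 7 at 48 h (47.4%) and 2 of 7 at 12 h (11.8%). Ra gave 1 of 8 at 48 h (9.33%) and 0 of 8 at 12 h (0.0367%). Fk gave 0 of 8 at 48 h (0%) and 0 of 8 at 12 h (0.00918%), and CsA 0 of 8 at 48 h (0.00925%) and 0 of 8 at 12 h (0%).

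With the replicate number as a block, 5 of 7 members were called in Aa low 24 h, beside 37.5% of all genes. There EGFR (-0.30, adjusted p = 0.0145), NRG1 (-1.14, 0.0215), EREG (0.77, 0.0386), HBEGF (0.77, 0.0426) and TGFA (0.32, 0.0469) passed, each in the direction it had with Aa low 48 h. In the Aa family same-numbered arrays deviated together, so the numbers were taken as pairs in this fit. Calls given without naming the block come from fits that did not use the pairs.

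**Figure D1:**
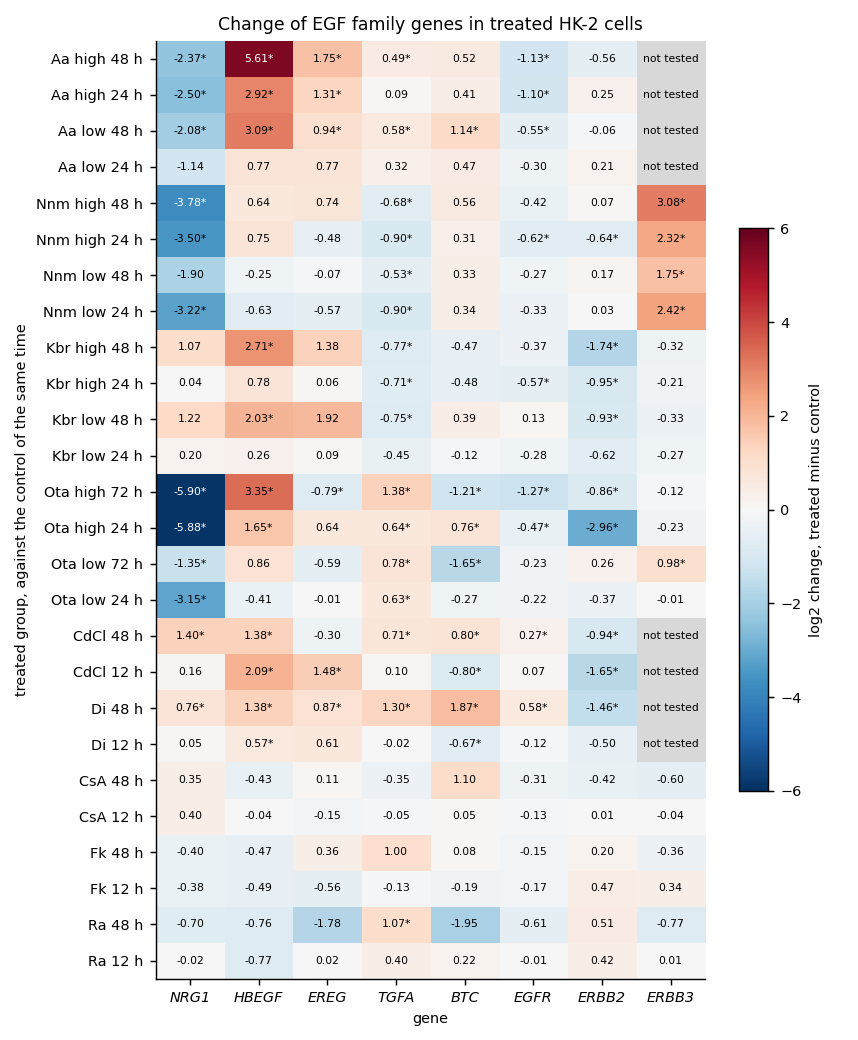
Change of each measured EGF family gene (columns) in each treated group against the control of the same time (rows), in log2 units, with colour for the change and * for a called result. HBEGF is red in the rows of Aa and of Kbr at 48 h, NRG1 blue in those of Aa, Nnm and Ota, and ERBB3 red with Nnm.

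NRG1, which encodes neuregulin-1, fell furthest of the members. On the Ota high arrays at 72 h it read 3.29, 2.91 and 3.25, against 8.78, 8.85 and 9.51 in the controls (-5.90 ± 0.406, adjusted p = 9.00e-09). At 24 h the Ota high arrays read 3.83, 3.47 and 3.99, against 9.59, 9.33 and 10.0 in controls (-5.88 ± 0.406, adjusted p = 7.06e-09). Every Ota high array was thus at background while every control was far above it, with no overlap at either time, so the fall may exceed the values given. The upper quartile of all probe sets was also lower on the Ota high arrays, at 6.82 against 7.04 at 72 h and 6.49 against 7.04 at 24 h, and its part in the Ota high results was not tested.

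At the low dose of Ota, NRG1 was partly kept. At 24 h the Ota low arrays read 6.74, 5.23 and 7.53, against 9.59, 9.33 and 10.0 (-3.15 ± 0.406, adjusted p = 0.000119). At 72 h they read 7.50, 7.68 and 7.90, against 8.78, 8.85 and 9.51 (-1.35, adjusted p = 0.0334), a call that ended without any one of the 6 arrays (values from -1.49 to -1.12). High minus low dose gave -4.54 at 72 h and -2.73 at 24 h, both called, so the loss was deeper with the high dose at both times.

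With Nnm the replicates of NRG1 differed widely. On the Nnm high arrays numbered 1, 2 and 3 it read 3.13, 6.74 and 3.52 at 48 h, against 7.77, 8.46 and 8.51 in controls (-3.78 ± 0.856, adjusted p = 0.0028). At 24 h it read 4.24, 7.41 and 5.13, against 8.75, 9.02 and 9.49 (-3.50, adjusted p = 0.00374). With Nnm low it read 4.20, 7.73 and 5.67 at 24 h (-3.22, adjusted p = 0.0127), against the same controls. All 9 of these treated values were below every control, and array 2 was the highest of the 3 each time. At 48 h Nnm low read 5.02, 7.66 and 6.34, again below the controls (-1.90, adjusted p = 0.138). Without array 2 the change was -2.56 (adjusted p = 0.00022). Array 2 lay nearest the controls, so the latter p-value is a description. In a fit of only the arrays compared, adjusted p was 0.0635 for Nnm high 48 h, 0.0544 for Nnm high 24 h and 0.0564 for Nnm low 24 h, and the last call also ended without Nnm low array 1 (-2.38) or control 3 (-3.02).

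NRG1 also fell with Aa, by a smaller amount and with more even replicates. Aa high gave 6.11, 5.39 and 6.11 at 48 h, against 7.51, 8.57 and 8.65 (-2.37 ± 0.471, adjusted p = 0.000416). At 24 h it gave 6.00, 7.07 and 7.32, against 8.96, 9.33 and 9.58 (-2.50, adjusted p = 0.00045). Aa low 48 h gave -2.08 (adjusted p = 0.0033), and none of these groups overlapped its controls. NRG1 rose with CdCl 48 h (9.59, 9.52 and 9.62 against 8.22, 8.03 and 8.28, 1.40 ± 0.104) and with Di 48 h (0.76). The controls of that family fell by 1.19 between 12 and 48 h, and the CdCl arrays at 48 h stood where the 12 h controls had been, at 9.41, 9.33 and 9.34. A fit of all arrays at once gave adjusted p = 0.0613 for CdCl and 0.37 for Di at 48 h. With Kbr 48 h NRG1 was above every control at the high dose (1.07) and the low dose (1.22) without being called. In the fit without the Nnm arrays numbered 2 adjusted p was 0.0256 and 0.0186. That fit was chosen after seeing the data and leaves out arrays that differed from their partners, so its p-values are a description.

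The 5 NRG1 probe sets that were above background did not move alike. The values above are those of 206343_s_at, which had the highest mean over all arrays. In Ota high 24 h, where it fell by 5.88, the probe set 208241_at fell by 1.56, 206237_s_at changed by 0.26 and 208230_s_at by -0.40 without a call, and 208232_x_at rose by 0.79 (adjusted p = 0.0178). In Nnm high 24 h, 206237_s_at fell by 1.08 and 208241_at by 1.59, while 208230_s_at (-0.18) and 208232_x_at (-0.12) were not called. With Aa high 24 h, 206343_s_at fell by 2.50, 208241_at by 2.33 and 206237_s_at by 1.36. In Di 48 h, 206237_s_at rose by 1.83 and 206343_s_at by 0.76. Read through 208241_at, the NRG1 calls for Nnm high 48 h (-1.01), Nnm low 24 h (-0.96), Ota low 24 h (-1.05), Ota low 72 h (-0.41) and CdCl 48 h (0.14) ended. The depth of the NRG1 loss with Ota high thus holds for 206343_s_at, and the fall on 208241_at was smaller at both times.

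**Figure D2:**
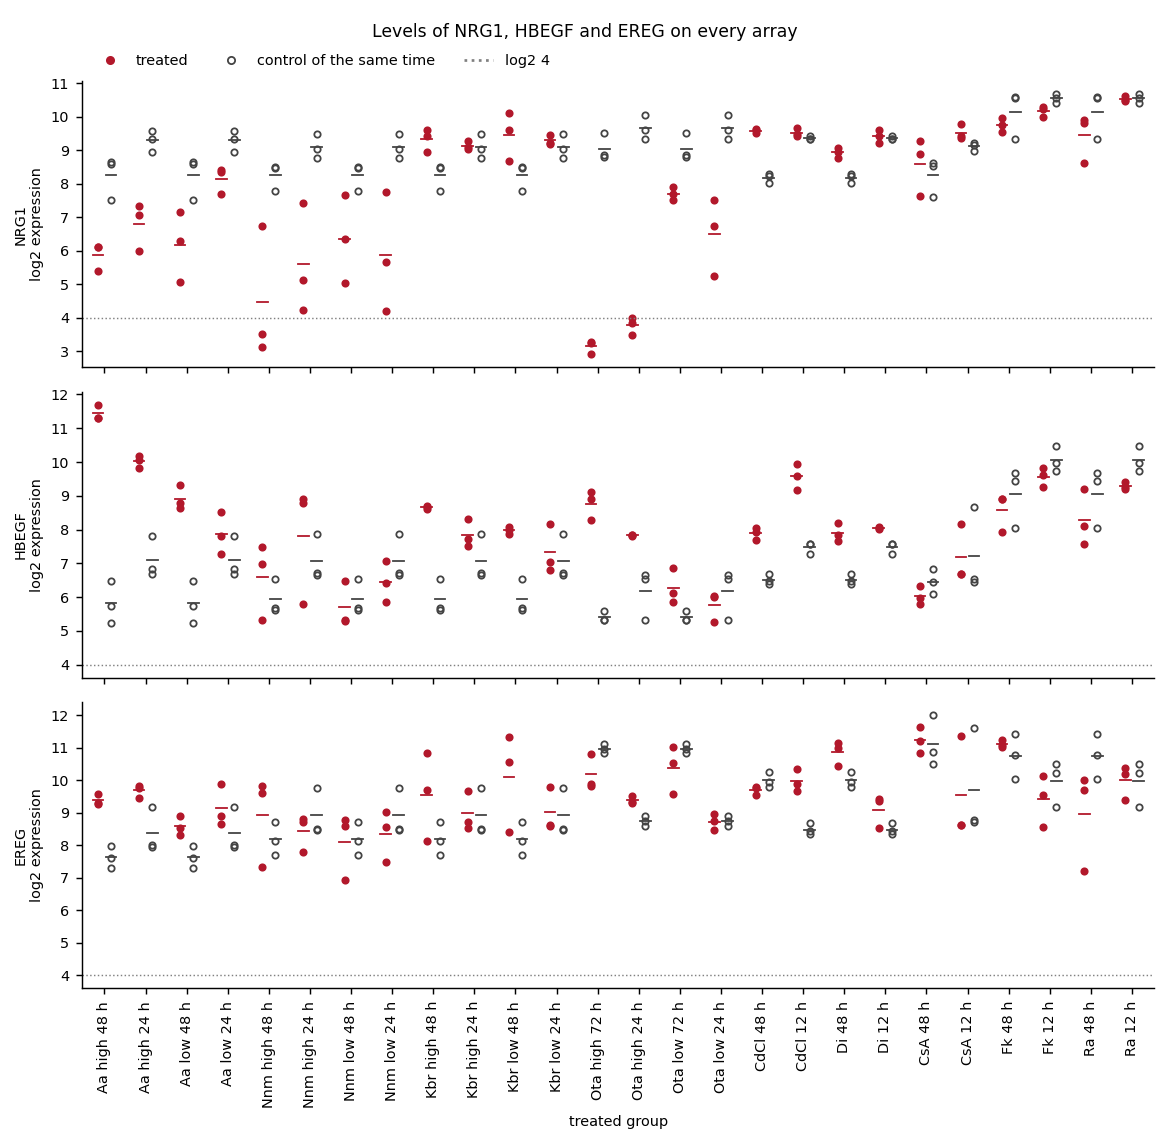
Log2 expression of NRG1, HBEGF and EREG on every array, by treated group, with filled points for treated arrays, open points for the controls of the same time to their right, bars for means and a dotted line at log2 4. NRG1 lies below the line on every Ota high array, and HBEGF at 11.3 to 11.7 on the Aa high arrays of 48 h.

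HBEGF encodes heparin-binding EGF-like growth factor, a ligand of EGFR and ERBB4, and EREG encodes epiregulin, which binds the same receptors. Both were called higher in Aa high 48 h, Aa high 24 h, Aa low 48 h, CdCl 12 h and Di 48 h. Their promoters are shown because these 2 ligands moved in the same direction in those 5 groups. The sequences are from RefSeq on GRCh38.p14, run 250 bases before to 50 after the gene's start, and stand at chr5:140346554-140346853 on the minus strand (HBEGF) and chr4:74364895-74365194 on the plus strand (EREG). Capitals mark GGGCGG on either strand in HBEGF, where 2 of 5 matches read CCGCCC, and CCAAT and TATAAA in EREG.
HBEGF: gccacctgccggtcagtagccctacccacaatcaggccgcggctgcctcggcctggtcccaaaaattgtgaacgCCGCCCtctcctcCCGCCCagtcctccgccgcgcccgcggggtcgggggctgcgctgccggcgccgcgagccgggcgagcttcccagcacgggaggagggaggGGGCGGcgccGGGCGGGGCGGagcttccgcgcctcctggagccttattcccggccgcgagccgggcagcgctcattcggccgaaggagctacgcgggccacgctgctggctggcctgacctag
EREG: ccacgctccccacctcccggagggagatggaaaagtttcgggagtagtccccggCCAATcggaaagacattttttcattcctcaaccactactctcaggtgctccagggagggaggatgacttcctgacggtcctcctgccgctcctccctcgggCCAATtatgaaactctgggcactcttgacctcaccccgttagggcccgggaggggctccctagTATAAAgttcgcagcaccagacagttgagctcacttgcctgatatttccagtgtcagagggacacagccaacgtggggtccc

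The HBEGF window is 75% G or C and the EREG window 57.7%. Motifs were searched on both strands, and position -1 is the base before the gene's start. GGGCGG occurs 5 times in the HBEGF window, at -176, -163, -73, -63 and -58, and is not in the EREG window; 45% of 35116 human promoters of the table hold it. The EREG window has TATAAA at -32 (11.5% of promoters) and CCAAT at -196 and -95 (34.6%), neither of which is in the HBEGF window. TGANTCA (7.71%), TGACGTCA (1.85%) and the CArG box (1.29%) are in neither window. A match describes letters and not a bound site.

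HBEGF had the largest rise of the members. On the Aa high arrays of 48 h it read 11.3, 11.3 and 11.7, against 5.25, 5.75 and 6.49 in the controls (5.61 ± 0.354, 48.8-fold, adjusted p = 1.07e-08). At 24 h Aa high read 10.1, 9.81 and 10.2, against 6.68, 6.83 and 7.80 (2.92, 7.55-fold, adjusted p = 9.39e-06). With Aa low 48 h it read 8.65, 9.31 and 8.79, against the same 48 h controls (3.09, 8.50-fold, adjusted p = 1.86e-05). None of the 3 groups overlapped its controls, and the Aa high group of 48 h had the highest mean of HBEGF in the series (11.4 ± 0.222, SD, n = 3), 1.39 above the next, the controls of Fk and Ra at 12 h.

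With Ota, HBEGF rose at the high dose. The Ota high arrays read 8.90, 8.29 and 9.11 at 72 h, against 5.33, 5.31 and 5.60 (3.35 ± 0.336, 10.2-fold, adjusted p = 4.61e-07). At 24 h they read 7.84, 7.85 and 7.80, against 6.65, 5.34 and 6.54 (1.65, adjusted p = 0.000476). Ota low gave 6.12, 5.85 and 6.86 at 72 h, above every control but not called (0.86, adjusted p = 0.0996), and -0.41 at 24 h. High minus low dose was called with Ota at 72 h (2.49) and 24 h (2.06) and with Aa at 48 h (2.52) and 24 h (2.15), so in both compounds HBEGF stood higher with the high dose.

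Kbr raised HBEGF at 48 h, to 8.61, 8.71 and 8.66 with the high dose and to 8.07, 7.99 and 7.88 with the low dose, against 5.69, 5.62 and 6.54 in controls (2.71, adjusted p = 0.00103, and 2.03, adjusted p = 0.0174). The low dose call ended without control 1 (1.90) or control 2 (1.86). At 24 h the changes with Kbr were 0.78 and 0.26 and were not called. Nnm, measured against the same controls, gave 6.97, 5.31 and 7.49 at the high dose of 48 h (0.64, not called), and Nnm minus Kbr was -2.07 at the high dose and -2.28 at the low dose of 48 h, both called. The first of these ended without Nnm high array 2 (-1.43). Without the Nnm arrays numbered 2 HBEGF was called higher with Nnm high at 48 h (1.28) and at 24 h (1.77). That setting was chosen after seeing the data and leaves out the Nnm arrays nearest the controls, so these gained calls are a description.

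CdCl raised HBEGF at both times and Di at 48 h, while the change with Di at 12 h was at the threshold. CdCl read 8.04, 7.68 and 7.94 at 48 h, against 6.39, 6.48 and 6.67 (1.38 ± 0.177), and 9.17, 9.60 and 9.96 at 12 h, against 7.27, 7.58 and 7.59 (2.09, adjusted p = 3.04e-07). Di read 7.66, 8.19 and 7.84 at 48 h (1.38) and 8.08, 8.05 and 8.01 at 12 h, against the same controls. The last change, 0.57 with adjusted p = 0.04996, lay at the threshold and was lost without any one of its 6 arrays (0.46 to 0.62). In Di 12 h the 3 prime to 5 prime difference of ACTB, a sign of RNA quality, was 1.43, against 1.95 in controls, with no overlap, and its part in the Di 12 h results was not tested. At 12 h CdCl stood 1.53 above Di (adjusted p = 8.53e-06).

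The second HBEGF probe set, 38037_at, gave changes of 5.84 with Aa high 48 h, 2.79 with Aa high 24 h, 3.95 with Ota high 72 h, 2.59 with Kbr high 48 h and 2.71 with CdCl 12 h, all called. It was also called higher with Ota low 72 h (1.32, adjusted p = 0.0343). With Di 12 h it gave 0.42 (adjusted p = 0.251), was not called and overlapped its controls. The HBEGF level of control cultures differed by family. It averaged 10.1 at 12 h in the controls of Fk and Ra, against 7.48 in those of CdCl and Di at the same time, and family and handling cannot be told apart. With Fk, Ra and CsA it ranged between -0.77 and -0.04 and was never called.

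EREG rose with fewer compounds and by less. Aa high read 9.58, 9.28 and 9.31 at 48 h, against 7.62, 7.31 and 7.98 (1.75 ± 0.329, adjusted p = 0.000255), and 9.77, 9.84 and 9.46 at 24 h, against 8.02, 7.95 and 9.17 (1.31, adjusted p = 0.00387). CdCl read 9.88, 9.68 and 10.3 at 12 h, against 8.68, 8.44 and 8.34 (1.48, adjusted p = 0.000135). These groups did not overlap their controls. At 48 h the CdCl arrays read 9.78, 9.54 and 9.79, at or below the lowest control, and were not called (-0.30), against 9.96, 10.2 and 9.79 in controls that had risen by 1.51 since 12 h. Di 48 h read 10.46, 10.995 and 11.15 and was called (0.87), and Aa low 48 h was called at 0.94 (adjusted p = 0.0352), a call that ended without Aa low array 1 or 3 or control 1 or 2 (0.78 to 0.97).

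EREG fell with Ota high 72 h (9.84, 9.90 and 10.8, against 10.85, 10.97 and 11.12, -0.79, adjusted p = 0.0312), where the controls had risen by 2.23 between 24 and 72 h, and this call ended without Ota high array 1 or 2 or control 2 or 3 (-0.80 to -0.62). Ota high 72 h was also a group whose RNA differed in the 3 prime to 5 prime difference of ACTB, with 1.93 against 1.37 in controls and no overlap, and its part in the Ota high results was not tested. With Kbr 48 h the replicates of EREG ran apart, at 10.8, 9.71 and 8.13 with the high dose and 11.3, 10.6 and 8.42 with the low dose, against 8.72, 7.70 and 8.13. Kbr low (1.92, adjusted p = 0.0576) passed when the replicate number was a block (adjusted p = 0.0309), and the value without Kbr low array 3 was 2.77. A fit of all arrays at once ended every EREG call named here except that of Aa high 48 h.

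TGFA encodes transforming growth factor alpha, a ligand of EGFR, and split the compounds by direction. It rose with Ota at both doses and times, with Aa, CdCl and Di at 48 h and with Ra 48 h, and it fell with Nnm at both doses and times and with Kbr except at the low dose of 24 h. Di 48 h read 10.2 on each array, against 8.92, 8.73 and 9.02 (1.30 ± 0.0937, 2.47-fold, adjusted p = 2.63e-08). Ota high read 10.3, 10.2 and 10.7 at 72 h, against 9.08, 8.95 and 9.08 (1.38 ± 0.176, adjusted p = 5.75e-06). Both groups lay wholly above their controls.

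Smaller rises of TGFA were 0.64 with Ota high 24 h, 0.78 with Ota low 72 h, 0.63 with Ota low 24 h, 0.71 with CdCl 48 h, 0.49 with Aa high 48 h and 0.58 with Aa low 48 h. The Ota low 24 h call held only without control 3, and ended without each of the other arrays (0.53 to 0.67). Ra 48 h gave the only call of any member with CsA, Fk or Ra. It read 10.6, 10.2 and 10.6, against 9.34, 9.08 and 9.83 (1.07 ± 0.284, adjusted p = 0.0311), and without Ra array 2, which stood apart, it was 1.20 (adjusted p = 0.0423). The call ended without control 1 (1.03), control 2 (0.90) or Ra array 3 (1.02). Fk 48 h, against the same controls, read 9.91, 10.6 and 10.7, also above every control (1.00), but its adjusted p was 0.921 in a comparison with 0% of genes called, and 0.00188 in a fit of all arrays at once.

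TGFA fell by 0.90 with Nnm high 24 h (8.56, 8.91 and 8.83, against 9.74, 9.54 and 9.71, adjusted p = 0.000132) and by 0.90 with Nnm low 24 h (8.60, 8.96 and 8.74). At 48 h it fell by 0.68 with Nnm high and by 0.53 with Nnm low, against 9.63, 9.37 and 9.63 in controls, and in a fit of only the arrays compared both calls ended (adjusted p = 0.0571 and 0.0792). The Nnm low 48 h call also ended without control 1, control 3 (both -0.49) or Nnm low array 2 (-0.42). Kbr high read 8.67, 8.73 and 8.91 at 48 h (-0.77, adjusted p = 7.63e-05) and 9.02, 8.77 and 9.07 at 24 h (-0.71), and Kbr low fell by 0.75 at 48 h. In each of these 7 groups all treated arrays lay below all controls, and for TGFA array 2 of Nnm did not stand out.

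Its dimmer probe set 205015_s_at was called higher with Ota high 72 h (2.36), Di 48 h (2.38) and Aa high 48 h (0.71), and none of its falls with Nnm or Kbr was called (-1.04 to -0.29). With the mean of all probe sets, the TGFA calls for Kbr high 24 h, Kbr low 48 h, Nnm low 48 h, Ra 48 h, Ota high 24 h and Ota low at both times ended.

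**Figure D3:**
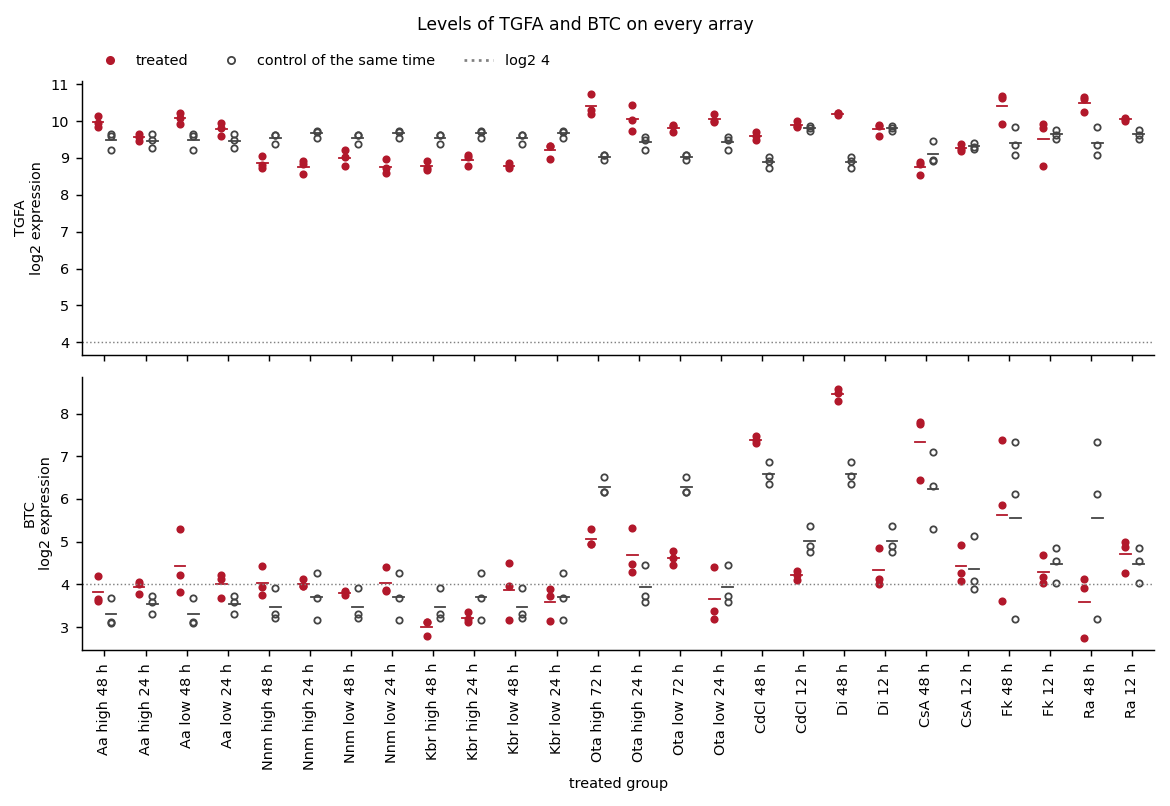
Log2 expression of TGFA and BTC on every array, by treated group, with filled points for treated arrays, open points for the controls of the same time to their right, bars for means and a dotted line at log2 4. TGFA lies above its controls with Ota and below them with Nnm and Kbr, and BTC is near the line in most groups and at 8.30 to 8.57 with Di 48 h.

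BTC encodes betacellulin, another ligand of EGFR and ERBB4. Its control means lay below log2 4 in 5 of 12 groups, those of Aa and of Nnm with Kbr at both times and of Ota at 24 h. In controls it was higher at the later time by 2.34 in the Ota family, 1.86 with CsA and 1.58 with CdCl and Di, while the Aa controls gave -0.24 and those of Nnm and Kbr -0.23, not called. Di 48 h read 8.30, 8.49 and 8.57, against 6.87, 6.53 and 6.36 (1.87 ± 0.201, 3.64-fold, adjusted p = 2.09e-06), and CdCl 48 h read 7.37, 7.32 and 7.47 (0.80). At 12 h the same compounds gave the opposite sign, with 4.13, 4.02 and 4.86 in Di (-0.67) and 4.22, 4.10 and 4.32 in CdCl (-0.80), against 4.90, 4.76 and 5.37. The groups did not overlap except in Di 12 h, whose call held only without Di array 3 (range -0.93 to -0.49 over the arrays left out). The ACTB difference given above for Di 12 h applies here too. These values are those of 241412_at. The dimmer probe set 207326_at was also called higher with Di 48 h (2.23) and CdCl 48 h (0.84). At 12 h it was at background and not called, with -0.03 for Di and 0.09 for CdCl.

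With Ota 72 h BTC was lower than in controls, at 5.30, 4.96 and 4.93 with the high dose (-1.21, adjusted p = 0.00355) and 4.46, 4.78 and 4.62 with the low dose (-1.65, adjusted p = 0.00233), against 6.16, 6.15 and 6.50. No treated array reached the controls. On 207326_at the Ota controls were at background at both times, with means of 2.76 at 24 h and 2.84 at 72 h. That probe set was not tested there and shows neither the control rise nor the fall with Ota. Calls near background were Aa low 48 h (4.21, 3.82 and 5.29, against 3.11, 3.68 and 3.11, 1.14) and Ota high 24 h (0.76, adjusted p = 0.0453), the last of which ended without Ota high array 1 (0.45), control 1 (0.66) or control 2 (0.59). Every Aa control array was below log2 4, so BTC passed the filter in that family through treated arrays. The Aa low 48 h call is therefore given as a description. With Ra 48 h BTC read 3.91, 2.75 and 4.13, against controls that themselves ranged widely, at 7.33, 6.11 and 3.20 (-1.95, adjusted p = 0.157).

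EGFR encodes the receptor for EGF and most of the ligands above. Its change was negative in 22 of 26 comparisons and was called lower in 7. Aa high read 10.4, 10.5 and 10.4 at 48 h, against 11.6, 11.6 and 11.5 (-1.13 ± 0.113, adjusted p = 6.01e-07), and 10.4, 10.7 and 10.4 at 24 h, against 11.7, 11.6 and 11.5 (-1.10, adjusted p = 1.99e-06). Ota high 72 h read 10.9, 10.5 and 11.3, against 12.2, 11.9 and 12.4 (-1.27 ± 0.185, adjusted p = 2.19e-05). In these groups no treated array reached a control, and the high dose stood below the low dose with Aa at 48 h (-0.58) and 24 h (-0.80) and with Ota at 72 h (-1.04). With the mean of all probe sets the Aa difference at 48 h was 0.18.

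EGFR also fell by 0.55 with Aa low 48 h, and its other 3 falls were less secure. Those of Kbr high 24 h (-0.57, adjusted p = 0.0438), Nnm high 24 h (-0.62, adjusted p = 0.0201) and Ota high 24 h (-0.47, adjusted p = 0.0371) ended without any of 6 arrays (-0.63 to -0.54), without Nnm high array 1 or 3 or control 1 (-0.59 to -0.43), and without each array but Ota high 1 (-0.49 to -0.41). EGFR rose with Di 48 h, to 12.3 on each array against 11.7 on each control (0.58 ± 0.0973, adjusted p = 0.000149), and with CdCl 48 h by 0.27, a call that held only without CdCl array 1. The controls of that family had risen by 0.77 between 12 and 48 h, as had those of Fk and Ra.

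Of the EGFR probe sets, 201984_s_at differed from the one used, 201983_s_at. It fell by 2.04 with Aa high 48 h, by 2.58 with Ota high 72 h and by 2.32 with Ota high 24 h, each more than on 201983_s_at. With Nnm 48 h it rose, at 10.8, 9.72 and 10.2 with the high dose (1.05, adjusted p = 0.0115) and 10.6, 9.32 and 10.4 with the low dose (0.90, adjusted p = 0.0461), against 9.20, 9.17 and 9.28, while 201983_s_at gave -0.42 and -0.27 there. Another, 210984_x_at, rose at 12 h with CdCl (1.81) and Di (1.45), where 201983_s_at gave 0.07 and -0.12. The dim probe set 1565483_at read 6.75, 6.29 and 1.89 in Aa high 48 h, against 1.85, 1.84 and 1.85 in controls. It was thus raised on 2 of 3 arrays, with a change of 3.12. These controls were at background, and 1565483_at passed the filter only in the Aa family, helped by the raised arrays. Its call as higher is therefore given as a description. With the mean of all probe sets, the EGFR calls for Aa high 48 h (-0.28) and Aa low 48 h (-0.47) ended.

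**Figure D4:**
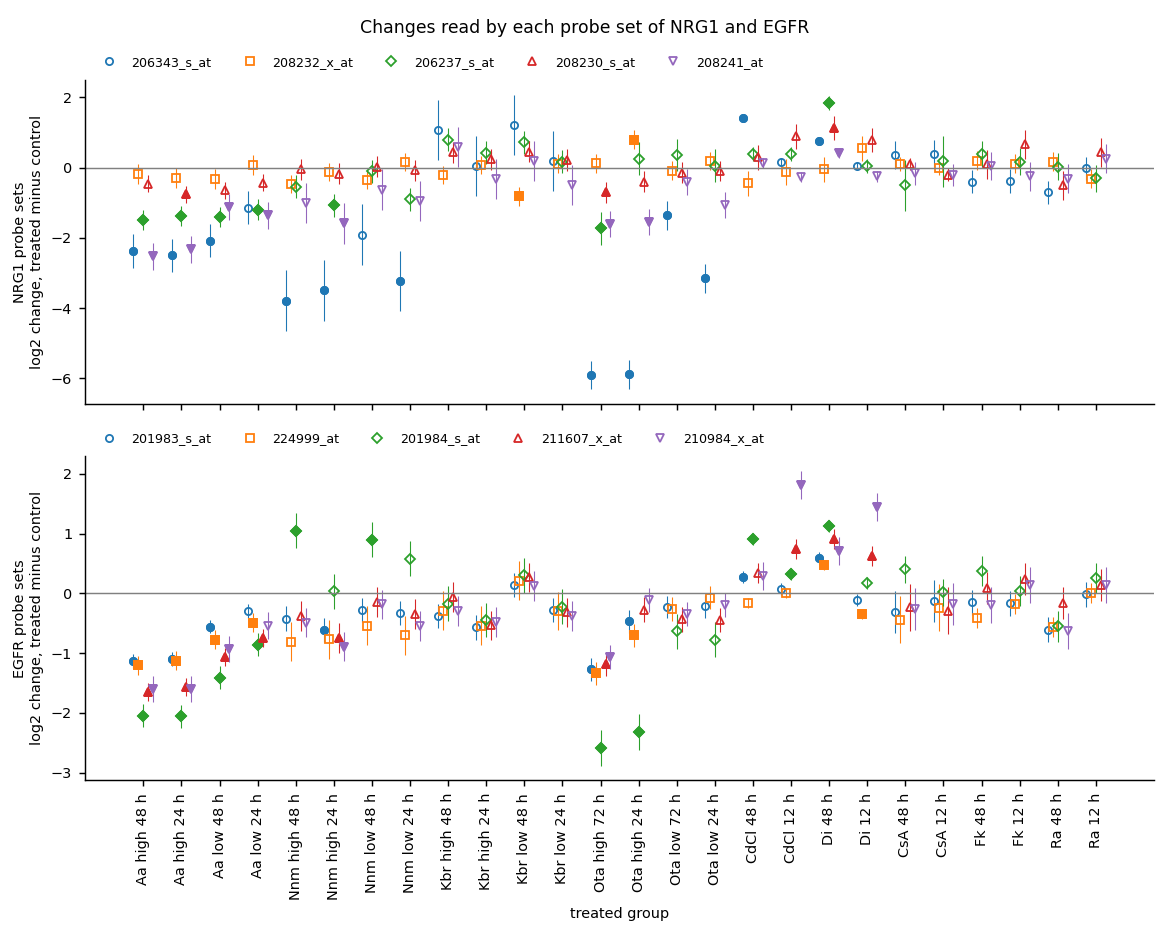
Log2 change of each of 5 probe sets of NRG1 (above) and of EGFR (below) in every treated group against its control, with standard errors and filled symbols for called changes. NRG1 206343_s_at falls to about -5.9 with Ota high while other NRG1 probe sets do not, and EGFR 201984_s_at is above 0 with Nnm 48 h while 201983_s_at is not.

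ERBB2 encodes the receptor that has no ligand of its own and is the preferred partner of the others. It fell in 9 comparisons and rose in none. Ota high read 5.18, 6.41 and 4.79 at 24 h, against 8.61, 8.55 and 8.12 (-2.96 ± 0.289, 7.81-fold lower, adjusted p = 3.04e-07). At 72 h it read 7.08, 7.02 and 7.05, against 8.11, 7.77 and 7.84 (-0.86, adjusted p = 0.0172). No treated array reached a control at either time. The 72 h call ended without control 1 (-0.76) and after quantile normalization (-0.67, adjusted p = 0.0987).

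Kbr, CdCl and Di lowered ERBB2 as well. Kbr high read 7.11, 6.34 and 6.32 at 48 h, against 8.71, 7.91 and 8.36 (-1.74 ± 0.247, adjusted p = 4.83e-06), and 7.44, 7.27 and 7.46 at 24 h, against 8.66, 8.05 and 8.30 (-0.95, adjusted p = 0.00825), and Kbr low 48 h fell by 0.93. The last 2 calls ended without control 1, at -0.79 and -0.73. CdCl read 6.44, 6.65 and 5.84 at 48 h, against 6.91, 7.59 and 7.25 (-0.94), and 6.69, 6.57 and 6.18 at 12 h, against 7.98, 8.12 and 8.31 (-1.65 ± 0.22, adjusted p = 2.58e-05). Di read 5.80, 5.65 and 5.92 at 48 h (-1.46, adjusted p = 5.79e-05), against the same 48 h controls. In each of these groups every treated array was below every control.

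Nnm left ERBB2 near its controls at 48 h, with 8.45, 8.26 and 8.50 at the high dose (0.07, not called), and Nnm minus Kbr was 1.81 at the high dose (adjusted p = 1.85e-06) and 1.10 at the low dose of 48 h. The fall with Nnm high 24 h (-0.64, adjusted p = 0.0479) overlapped its controls and ended without Nnm high array 1 or 3 or control 1 or 3 (-0.65 to -0.44). Aa high 48 h gave -0.56 (adjusted p = 0.061), which passed with the replicate number as a block (adjusted p = 0.00098). After quantile normalization ERBB2 was also called higher with Ra 48 h (0.75, adjusted p = 0.00687), against 0.51 and no call before it. The second probe set, 210930_s_at, was near background and fell with Kbr high at 48 h (-1.18) and 24 h (-1.17). It also fell with Nnm high 24 h (-1.05, adjusted p = 0.0342), without overlap. It was not called with Ota high at 72 h (-0.31) or 24 h (-0.39).

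ERBB3 encodes the neuregulin receptor with a weak kinase. It was at background in most cultures, with means below log2 4 in 10 of 12 control groups and 20 of 26 treated groups. In the family of Nnm and Kbr it passed the filter through the Nnm arrays, since 1 other array was above log2 4, and in the Ota family through Ota low 72 h, with 2 other arrays above it. A difference had to appear there, so the 5 ERBB3 calls against control are given as a description and support nothing. In Nnm high 48 h it read 7.80, 5.58 and 7.66, against 3.75, 4.10 and 3.96 in controls. In Nnm high 24 h it read 7.03, 4.25 and 6.70, and in Nnm low 24 h 6.84, 4.81 and 6.64, against 3.69, 3.67 and 3.66. Every Nnm array was above every control, and the array numbered 2 was the lowest of the 3 each time.

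Nnm low 48 h read 6.38, 5.01 and 5.66, against 3.75, 4.10 and 3.96 in controls. A second probe set, 202454_s_at, gave changes of 2.05 with Nnm high 48 h, 1.95 with Nnm high 24 h, 0.10 with Nnm low 48 h and 1.62 with Nnm low 24 h. The Kbr arrays of both doses and times read 2.94 to 3.66, below the Nnm arrays of the same dose and time in every case. Outside Nnm, ERBB3 read 4.93, 5.00 and 4.33 with Ota low 72 h, against 3.68, 3.68 and 3.98 in controls, where Ota high read 3.66, 3.68 and 3.65. Since the lower side was at background throughout, these values give no full size of a change. In the Nnm groups 206343_s_at of NRG1 read lower, and 226213_at of ERBB3 higher, on every array than on every control. Other NRG1 probe sets differed, as given above. On 202454_s_at of ERBB3 the Nnm low arrays overlapped their controls at both times. Because of the filter, these opposite signs are a description and support nothing about the pair.

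**Figure D5:**
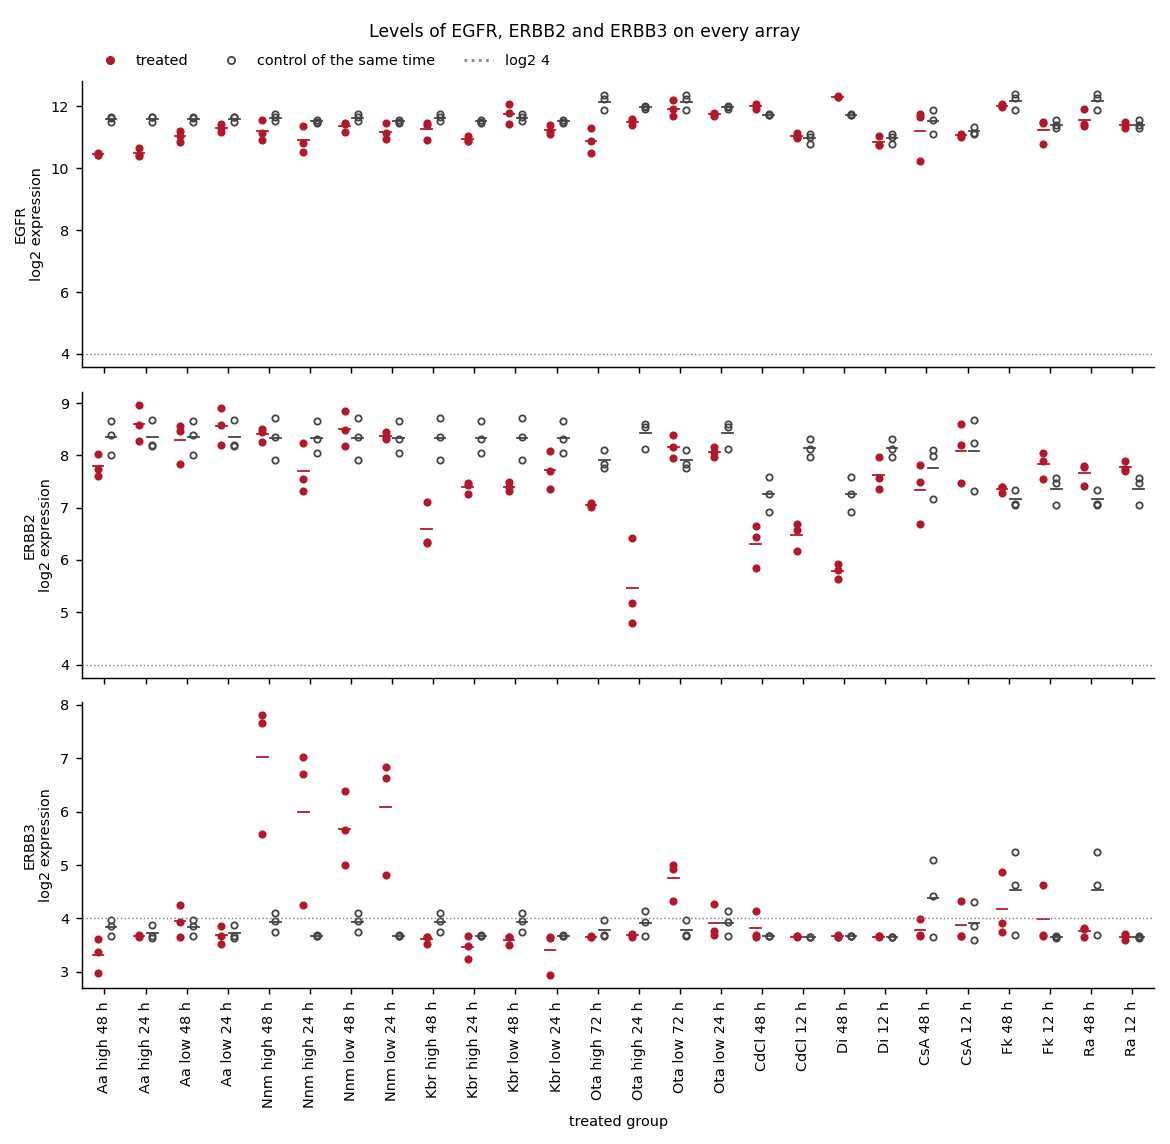
Log2 expression of EGFR, ERBB2 and ERBB3 on every array, by treated group, with filled points for treated arrays, open points for the controls of the same time to their right, bars for means and a dotted line at log2 4. ERBB3 lies at or below the line except with Nnm, Ota low 72 h and some arrays of other groups, and ERBB2 is lowest with Ota high 24 h.

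Between high and low doses, 16 member results were called in 8 comparisons, a share near the 24.6% of gene results. Each comparison of this paragraph tested 8 members, or 7 in the Aa family and in that of CdCl and Di. None was called with Nnm, where 0% of genes were called at either time. Between compounds with shared controls, 26 member results were called in 8 comparisons (33.2% of gene results). Of these, 4 were the ERBB3 results of Nnm minus Kbr, which are a description as above. CdCl stood below Di at 48 h for EREG (-1.17), BTC (-1.07) and TGFA (-0.59). For NRG1 the 48 h difference was 0.65 on 206343_s_at, but -0.41 with the mean of its probe sets and -0.27 without probe sets of the suffixes _x_at and _s_at, so its direction turned with the probe set. Fk stood above Ra for EREG at 48 h (2.14, adjusted p = 0.0469), where Ra array 2, the one that stood apart over all genes, read 7.22 beside 9.70 and 10.0, and this call ended without that array (1.26) or any one of the Fk arrays (2.08 to 2.19). In control cultures 11 member results differed between times in 6 families (18.2% of gene results), and 20 of the members' changes differed between times in 13 comparisons (11.3%).

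Likeness to each member was taken as Pearson r over the 26 changes, among 10523 genes tested in every family, as a description of points that share control cultures. For NRG1 the nearest genes were MRPL12 (r = 0.949), CCNH (0.942) and CTNS (0.938), and for HBEGF SLC25A25 (0.922), MTRF1L (0.895) and IL6 (0.876). For EREG they were ATF3 (0.824), ZBTB21 (0.813) and ALG2 (0.793), for TGFA PRSS23 (0.866), PLAU (0.858) and LPCAT1 (0.806), and for BTC PSAP (0.824), CRELD1 (0.81) and GALNS (0.76). For EGFR they were COMMD7 (0.825), SLC38A6 (0.819) and SNX24 (0.817), and for ERBB2 KNTC1 (0.927), FANCL (0.911) and TCF19 (0.909). Among the members, r was 0.646 between NRG1 and EGFR, 0.61 between EREG and HBEGF and -0.47 between HBEGF and EGFR.

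Of the remaining ligands and receptors of the family, 5 of 6 were in the table and EGF was the one tested. EGF was called higher in 6 comparisons, among them Di 48 h (2.14), Kbr high 48 h (1.55) and Nnm high 48 h (1.21), and lower in 2, Aa high 48 h (-1.48) and Aa high 24 h (-1.05). The genes of ligand release had 23 results called higher and 20 lower of 200 (21.5%). Among them the sheddase ADAM9 rose in 10 comparisons and fell in 1 (-1.52 to 1.88), ADAM17, the main sheddase of TGFA, rose in 6 and fell in 1 (-0.83 to 0.97), and RHBDF1, which encodes an inactive rhomboid that carries ADAM17 to the surface, fell in 7 and rose in none (-1.85 to 0.79).

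Genes of the signalling chain below the receptors had 39 results higher and 76 lower of 460 (25%). The adaptor gene GAB1 rose in 3 comparisons and fell in 8, SOS1, an exchange factor of RAS, rose in 4 and fell in 6, and the kinase gene AKT2 fell in 10 and rose in none (-1.14 to 0.14). Genes that dampen the receptors had 47 higher and 70 lower of 468 (25%). The phosphatase gene PTPN1 rose in 5 and fell in 7 (-3.53 to 1.16), LRIG2 rose in 5 and fell in 6, and LRIG1, whose product promotes degradation of the receptors, rose in 2 and fell in 7. These 3 shares lay near or below the 26.9% of all gene results, and that of the members was 38%. The member share includes the 5 ERBB3 calls and the BTC call of Aa low 48 h, which are only a description. Members and lists were chosen with earlier results of these data known, so the shares are not a test.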

How the data were processed

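RNA of HK-2 cells was measured on 3 arrays in each of 38 groups. The submitters' processing notes name GCRMA, and the series text says that all arrays were normalized in one run. The deposited values are on the log2 scale, per probe set and array, and were used as they stood. Where several probe sets shared a symbol, the one with the highest mean stood for the gene. Probe sets with several symbols were left out.

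Group means were fitted with limma 3.58.1 in R 4.3.3, 1 model per control family, with empirical Bayes moderation. A gene was tested where its log2 value exceeded 4 on at least 3 arrays of the family, and called at a Benjamini-Hochberg adjusted p under 0.05 over all genes tested (10806 to 11138 per family). Moderated p-values set a difference of groups against the spread of arrays around their own group means, pooled over the groups of a family. The number of arrays limits the precision. Probe sets were also fitted singly. Python 3.11.15, pandas 2.3.3, numpy 2.4.6 and matplotlib 3.10.9 made tables and figures.

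The members, lists and tests were chosen with earlier results of these data known. The genes named are the members, the 3 genes most like each member tested in all families by Pearson r over the 26 changes, and from each pathway list the 3 genes called in most comparisons. The fits were tested on simulated data.

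Same-numbered arrays were taken as pairs where every correlation of their deviations exceeded 0.1, which held for CsA (lowest 0.534), Aa (0.28) and Nnm with Kbr (0.139). The main fits did not use these pairs. Alternatives were that number as a block, no filter, a filter at log2 6, quantile normalization, the trend option, all arrays in one fit, only the arrays compared, the mean of probe sets, probe sets without the suffixes _x_at and _s_at, and leaving out each array. The setting without the Nnm arrays numbered 2 was chosen after seeing the data.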

Additional observations from a re-analysis of the deposited data

Results flagged for a closer look

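The change against the controls of the same time differed between the later and the earlier time for the following members, by a limma interaction of later minus earlier. Each value combines 12 arrays and includes any drift of the controls. With Aa high the change of HBEGF was larger at 48 than at 24 h by 2.69 (adjusted p = 0.00278), and with Aa low by 2.32 (adjusted p = 0.0356), a call lost without each of 9 of the arrays (1.97 to 2.46).

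With Ota high, 72 minus 24 h gave 1.70 for HBEGF, 0.73 for TGFA and 2.11 for ERBB2, whose fall was smaller at 72 h, and -1.44 for EREG, -1.97 for BTC and -0.80 for EGFR. Of these, EREG (-0.79 at 72 h and 0.64 at 24 h) and BTC (-1.21 and 0.76) had opposite signs at the 2 times, and the TGFA difference was lost without Ota high 72 h array 3 (0.57) or 24 h control 3 (0.66). With Ota low ERBB3 gave 0.98 (adjusted p = 0.0412), lost in 8 of the fits with an array left out (0.86 to 0.98). ERBB3 passed the filter there through Ota low 72 h, so this value is a description.

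With CdCl, 48 minus 12 h gave 1.24 for NRG1, 0.61 for TGFA and 1.59 for BTC, and -1.78 for EREG and -0.72 for HBEGF, the last lost in 7 such fits (-0.75 to -0.53). With Di it gave 0.70 for NRG1, 0.82 for HBEGF, 1.32 for TGFA, 2.54 for BTC and 0.70 for EGFR, and -0.96 for ERBB2. The HBEGF difference was lost without Di 48 h array 2 (0.67) and that of ERBB2 in 4 such fits (-0.89 to -0.79).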

How the results depend on the processing

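The arrays give 3 replicates a group, values near log2 4 cannot be told from background, and several members rest on probe sets that disagree. Against controls, 38 higher and 38 lower calls became 36 to 40 and 34 to 42 with 1 array left out, and 75 and 79 probe set calls became 71 to 80 and 72 to 84. Likewise 16 dose calls became 15 to 18, 20 calls of a difference between times 18 to 20, 11 calls in controls 10 to 12, and 26 calls between compounds 24 to 27. Without probe sets of the suffixes _x_at and _s_at 25 members were called lower, in a fit of all arrays 9 differences between times were called, and with the mean of all probe sets 6 in controls. Signs turned for EGFR with CdCl 48 h (-0.17 without those suffixes, 0.27 in the values above), for EGFR in Aa high minus low 48 h (0.18 with the mean of probe sets, -0.58 above) and for NRG1 in CdCl minus Di 48 h (-0.41 with the mean and -0.27 without those suffixes, 0.65 above). The causes were not tested. With the replicate block 43 members were called higher and 42 lower, with 19 dose, 23 time, 16 control and 26 compound calls, and 82 and 99 probe sets. In the families whose numbers pair, the block also gained ERBB2 in Aa high minus low 48 h (-0.50) and in Aa high 48 minus 24 h (-0.81), EREG in Aa high minus low 48 h (0.81), TGFA with Kbr low 24 h (-0.45), BTC in Kbr high minus low 48 h (-0.86), HBEGF in Aa controls (-1.28), and EREG (1.43) and ERBB2 (-0.33) in CsA controls. It ended no call of a member. Without the Nnm arrays numbered 2, 43 were called higher and 43 lower. That setting was chosen after seeing the data and leaves out the Nnm arrays nearest the controls, so these counts are a description.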
